A study of Mus musculus with 16 samples.

Results

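The comparison was between UVB-exposed epidermis after 15 weeks and after 2 weeks of exposure. Its members are the 4 libraries of these groups, 2 per time point, chosen by their labels out of 16 in the series. The mice were female SKH-1, a hairless strain used in photocarcinogenesis, and no genotype beyond the strain is given. Exposed mice received UVB at 60 mJ/cm2 in 2 sessions per week, whereas the control mice have no agent in the labels. The same interval in 4 libraries of unexposed epidermis, 2 at week 2 and 2 at week 15, was set beside it. The age of the mice is not given in the sources used here, so an effect of exposure time and one of aging cannot be told apart within the UVB arm. No label ties a library to an animal, so the p-values reflect variation among these libraries, which could be technical. Libraries are named 0 and 1, as in their titles.

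UVB light damages DNA in keratinocytes, the main cells of the epidermis, and activates p53, excision repair, inflammation and regrowth of the basal layer. With continued exposure, clones of damaged keratinocytes expand, and immune cells such as Langerhans cells and T cells leave and return. Interferons are cytokines that switch on genes for sensing and blocking foreign or misplaced nucleic acid, through the transcription factors STAT2 and IRF9, which bind a DNA element called the interferon-stimulated response element. In bulk tissue, more cells of a type and more RNA per cell cannot be told apart.

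Between weeks 2 and 15, UVB-exposed epidermis gained RNA of antiviral genes such as Oas2, Oas3 and Samd9l and of the cell cycle inhibitor gene Cdkn2a. Of 13478 genes tested, 33 rose (0.245%) and 3 fell (0.0223%) at an adjusted p under 0.05, 36 in all (0.267%). Of the called genes whose 4 UVB libraries averaged 5 CPM or more, the 12 with the largest rises were Cdkn2a, Oas2, Oas3, Apol9b, Samd9l, Phf11d, Igfbp6, Ddx58, Adam1a, Oas1b, Syk and Sema5a. The 3 genes that fell were Ankrd37, Zfp365 and Lynx1. In control epidermis 3 genes rose over the same interval (0.0223%), Rfx2, Mki67 and Zbed6, and none of the 36 was among them. No gene passed the test of the difference between the UVB and the control change with edgeR (0 of 13478, 0%, smallest adjusted p = 0.205). That test had 1190 genes at an unadjusted p under 0.05 (8.83%), and DESeq2 called 50.

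The number of calls depended strongly on the fit, while the directions of the 36 called genes did not. The spread was estimated over 12 epidermis libraries in 6 groups, and replicates differed less in the UVB groups than in the controls. The standard deviation of the log2 difference between replicates was 0.522 at week 2 and 0.434 at week 15 under UVB, against 0.777 and 0.614 in control epidermis. Without week 2 UVB library 0, week 2 UVB library 1, week 15 UVB library 0 or week 15 UVB library 1, 0 genes were called in each case. Without week 2 control library 1, the shallowest, 277 genes were called (2%), among them all 36. With the 4 UVB libraries alone, 1290 of 12644 genes rose (10.2%) and 1019 fell (8.06%), again including all 36. With the replicate number as a block, 7 of the 36 were called, and with the week 2 numbers crossed 5 were. Over the 570 values of the 36 genes under the alternatives tried, the direction was that of the values below in all 570. These genes were called from the same libraries, and their UVB groups did not overlap. The alternatives could therefore hardly reverse them, and this count is a description only.

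The response element stands in front of several of the genes that rose, and the stretches before 2 of them are shown because they carry it. They are the 120 bases before the start site from RefSeq (GRCm38.p6), printed 5′ to 3′ on the gene's strand. Capitals mark the core of the element, which is GAAA, any 2 bases, then GAAA again, read on either strand (on the opposite strand it starts and ends with TTTC). For Oas3 the stretch is chr5:120777660-120777779 on the minus strand, with 1 match. For Apol9b it is chr15:77728952-77729071 on the plus strand, with 2 overlapping matches.
Oas3: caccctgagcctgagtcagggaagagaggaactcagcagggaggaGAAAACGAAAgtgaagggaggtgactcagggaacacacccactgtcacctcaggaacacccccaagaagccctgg
Apol9b: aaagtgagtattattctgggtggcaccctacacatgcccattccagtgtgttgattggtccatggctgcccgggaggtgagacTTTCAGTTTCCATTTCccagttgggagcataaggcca
In windows of 250 bases before to 50 after the start, the core was in 3.99% of the 27025 genes with a RefSeq promoter and in 3.58% of the 10217 tested genes that matched. It was in 7 of the 28 genes that rose and matched (25.0%). It was in 17 of 28 matched members of the interferon-stimulated list (60.7%). TGANTCA, the AP-1 site, was in 9 of these 28 (32.1%), in 3 of the 28 genes that rose (10.7%) and in 6.96% of tested genes. These matches describe letters and not bound sites. CACGTG, the E-box, was in 3.57% of the genes that rose, 0.0% of the interferon-stimulated list and 11.4% of tested genes. The NF-kappaB site, as GGG, any 2 bases, TTTCC, was in 0.0% of both sets and 2.1% of tested genes. All motifs were searched on both strands, and the Oas3 stretch also holds 2 matches to the AP-1 site, which are not in capitals.

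Oas2 and Oas3 encode 2′-5′ oligoadenylate synthetases, which sense double-stranded RNA and activate RNase L. Oas2 (chromosome 5, 120730333 to 120749848, mm10) was at 4.25 and 1.63 CPM (counts scaled to library size) in the week 2 UVB libraries 0 and 1, and at 51.9 and 95.3 CPM at week 15. In control epidermis Oas2 was at 5.02 and 2.91 CPM at week 2 and at 3.78 and 7.18 CPM at week 15. Only the week 15 UVB libraries stood high, above all 6 others of these weeks. Oas2 rose by 4.65 ± 0.65 on the log2 scale (SE of the fit, n = 2 per group, edgeR adjusted p = 0.0348), and its control change was 0.39 ± 0.71 (adjusted p = 0.739).

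Oas3 (chromosome 5, 120753098 to 120777659) went from 2.30 and 1.14 CPM to 25.4 and 40.7 CPM under UVB, without overlap. It rose by 4.26 ± 0.49 in log2 (edgeR adjusted p = 0.0252), and its control libraries were at 1.61 and 1.66 CPM at week 2 and at 2.46 and 6.87 CPM at week 15. Oas1b, a gene of the same cluster, rose by 2.06 ± 0.36 (edgeR adjusted p = 0.0496), from 10.8 and 6.36 to 36.3 and 35.0 CPM. Its controls stayed between 8.30 and 10.7 CPM. Reads of the Oas genes can be shared with near-identical copies, so the value of each is uncertain.

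Other sensors and signalling genes rose with them. Ddx58, which encodes the cytosolic RNA sensor RIG-I, went from 7.26 and 5.71 to 26.0 and 31.9 CPM, a log2 rise of 2.16 ± 0.35 (edgeR adjusted p = 0.0496). Samd9l, an interferon-induced antiviral factor, went from 3.72 and 4.41 to 33.8 and 41.6 CPM and rose by 3.21 ± 0.40 (edgeR adjusted p = 0.0252). In both genes the week 15 UVB libraries lay above every other library of weeks 2 and 15, but Samd9l also had a control change of 2.09 ± 0.46 (adjusted p = 0.0788), from 3.41 and 1.66 to 8.89 and 14.7 CPM. Stat2, a subunit of the factor that binds the response element, went from 62.9 and 54.5 to 139 and 169 CPM (log2 1.39 ± 0.23, edgeR adjusted p = 0.0496). Stat2, Tap2, P4ha3, Col7a1 and the other called genes outside the 15 above were chosen after their values were seen.

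Apol9b, an apolipoprotein L gene known to respond to interferon, rose from 0.886 and 0.653 to 8.24 and 12.8 CPM (log2 3.74 ± 0.65, edgeR adjusted p = 0.0496). Its week 2 UVB libraries were also the lowest of the 8, since control libraries lay between 2.46 and 4.98 CPM. Phf11d, a PHD finger gene, rose from 1.77 and 0.979 to 8.83 and 14.7 CPM (log2 3.09 ± 0.49, edgeR adjusted p = 0.0496). Both belong to families of near-identical copies and are uncertain for that reason.

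**Figure D1:**
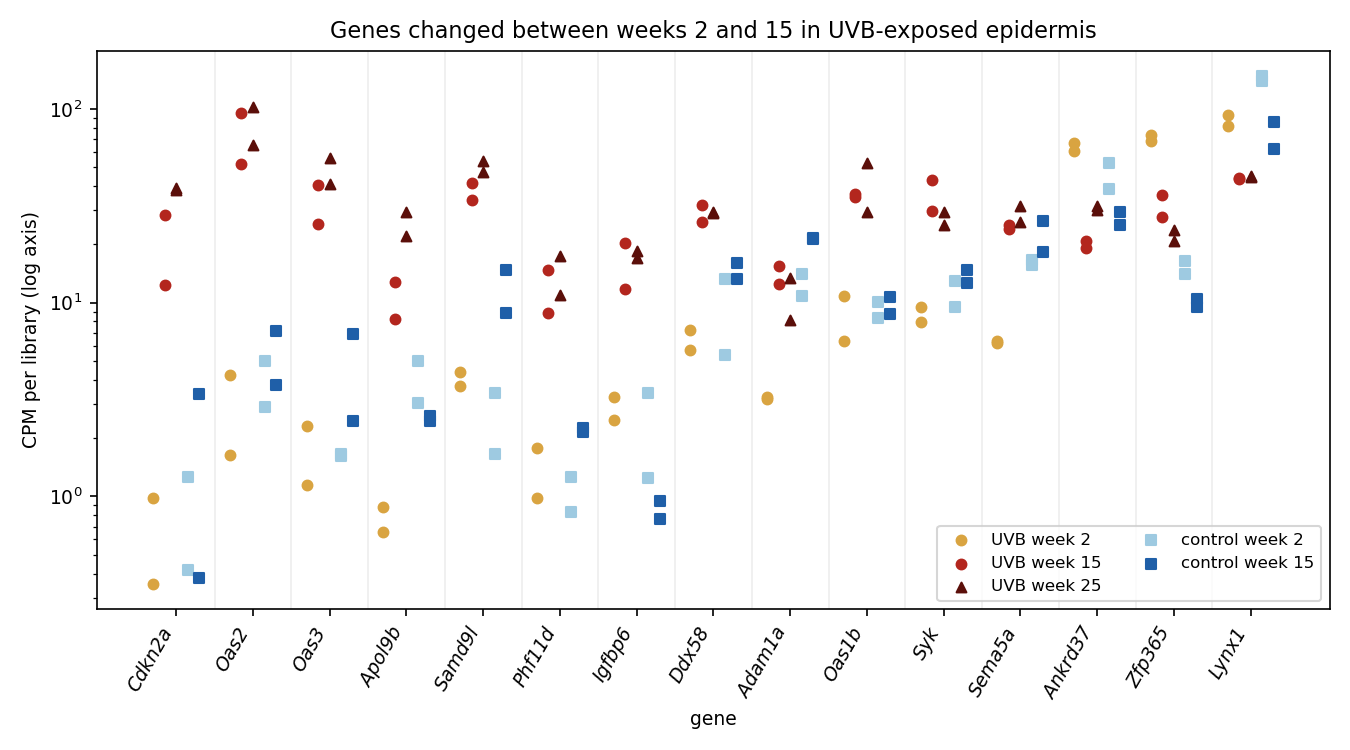
CPM in each library (points, log axis) of the 12 genes with the largest rises among those averaging 5 CPM or more, and the 3 that fell between weeks 2 and 15 under UVB, with week 25 UVB libraries (triangles) and control libraries (squares) beside them. For Oas2 the week 15 UVB libraries sit at 51.9 and 95.3 CPM, above all control and week 2 libraries, and the week 25 UVB libraries are at 65.1 and 103.

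The wider list of interferon-stimulated genes moved in 1 direction. Of its 41 tested members 5 rose (Oas3, Samd9l, Oas2, Ddx58 and Stat2), against 0.245% of all tested genes, and 0 fell, against 0.0223%. Both week 15 UVB libraries lay above both week 2 UVB libraries in 38 of 41 (33.8% of all tested genes), and the reverse held for 0 of 41 (32.1%). In 35 of 41 both week 15 UVB libraries lay above all 6 other libraries of weeks 2 and 15 (9.83% of all tested genes), and in 0 of 41 below them (8.78%). An unadjusted p under 0.05 with a positive sign was reached by 35 of 41 (14.3% of all), and with a negative sign by 0 (7.09%). The median log2 was 2.66, against 0.02 over all tested genes, and 0.17 for the same members in control epidermis, where 12 of 41 had higher week 15 libraries (26%) and 8 lower ones (22.6%). No reads were found in a control group for 3 members. With genes at their bound, and without 4 members at or under 3 counts in both control groups, the control median was 0.27.

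Members that did not pass the test also had large differences. The 3 named here lie outside the rule for naming genes and were chosen after their values were seen. Ifi44, an interferon-induced gene, was at 0.531 and 0.00 CPM in the week 2 UVB libraries and at 7.65 and 16.6 CPM at week 15, with control libraries at or under 0.538 CPM (adjusted p = 0.0598). Usp18, which removes ISG15 from proteins and dampens interferon signalling, was at 3.37 and 1.96, then 20.7 and 30.6 CPM (adjusted p = 0.0696). Isg15, the ubiquitin-like modifier itself, was at 18.2 and 6.53, then 42.1 and 57.7 CPM (adjusted p = 0.114). In these 3 genes the UVB weeks did not overlap.

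The smallest log2 values of the list were those of Ifih1 and Irf7, which also lie outside the rule for naming genes. Irf7, the amplifier of type I interferon production, was at 45.0 and 67.7, then 75.0 and 66.8 CPM, and its groups overlapped (log2 0.33 ± 0.28, adjusted p = 0.509). Ifih1, the RNA sensor MDA5, had a log2 of 0.31 ± 0.27 (adjusted p = 0.509). At 2 weeks the list stood near control, with a median UVB over control of 0.15 in log2, against 2.38 at week 15. Week 25 shares no library with these comparisons, and there the median was 2.64, with 29 of 41 members higher in UVB than in control at an adjusted p under 0.05 (10.6% of all tested genes).

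**Figure D2:**
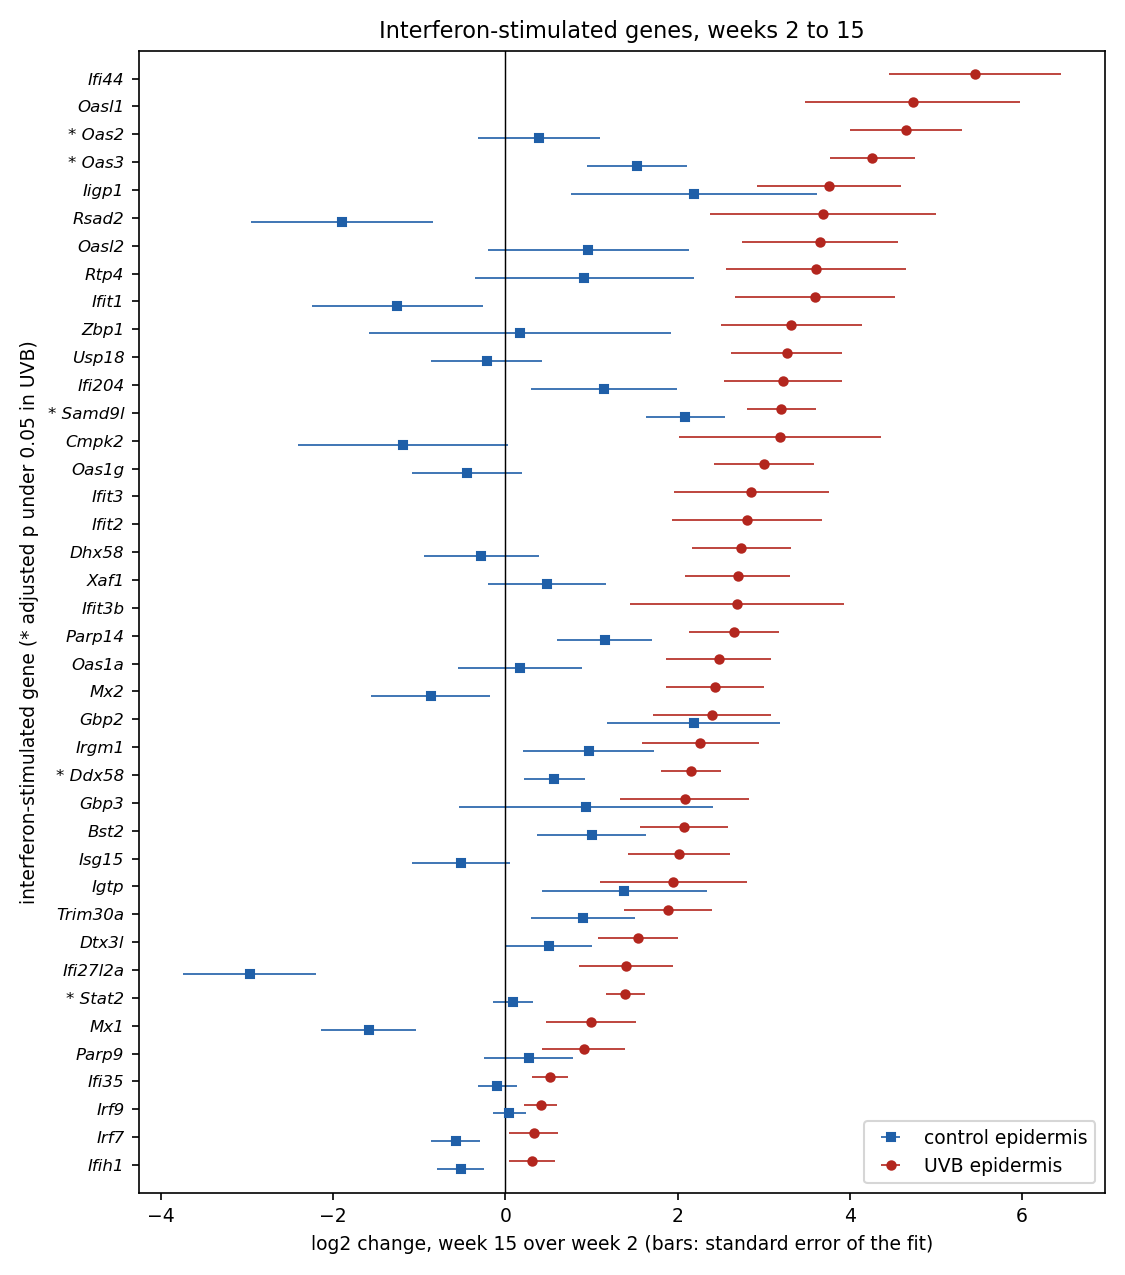
Log2 change from week 2 to week 15 (points, with the standard error of the fit as bars) of 40 of the 41 interferon-stimulated genes in UVB epidermis (circles) and control epidermis (squares). An asterisk marks the 5 genes that rose under UVB, and no control value is drawn for 5 genes with no reads in a control group or at most 3 counts in both. All UVB points lie right of 0, while control points lie on both sides.

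Some facts of the libraries moved with these genes, and their part in the changes was not tested. The 4 UVB libraries had similar totals, from 5752354 to 6363746 counts, but 15315 and 15415 genes were detected at week 2 and 16196 and 16011 at week 15. Genes at or under 0.02 counts per base of exon had a median log2 of 0.61 under UVB, and genes above 1 count per base had -0.23. Within these ranges the interferon list stood apart from the medians over all genes. Its 10 members at or under 0.02 had a median of 3.02, its 21 members between 0.02 and 0.1 had 2.74 (0.19 over all genes there), and its 10 above 0.1 had 1.15 (-0.10 over genes between 0.1 and 0.4). Duplicates were removed before counting, which limits abundant genes. Leaving out the shortest genes, the highest value per library was 1.83 to 2.11 counts per base over the whole series, tumor and whole skin included. Week 2 control library 1 held 2905165 counts, fewer than any other.

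Antigen presentation by MHC class I, which displays cytosolic peptides to T cells, had a median log2 of 0.47 under UVB and -0.21 in control epidermis. Of 12 tested members 1 rose (0.245% of all tested genes), which was Tap2, a subunit of the peptide transporter. Tap2 went from 85.4 and 83.1 to 149 and 176 CPM (log2 0.95 ± 0.16, edgeR adjusted p = 0.0496), while its control libraries ran from 78.1 to 121 CPM. Psmb9, an immunoproteasome subunit, was at 58.1 and 57.9, then 106 and 109 CPM, without overlap (adjusted p = 0.0931). H2-M2, a class I gene outside this list, rose from 14.3 and 14.0 to 41.8 and 52.9 CPM (log2 1.74 ± 0.30, edgeR adjusted p = 0.0496), with controls between 28.4 and 72.7 CPM.

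Chemokines that draw T cells, and those for monocytes, eosinophils and neutrophils, had 0 members called of 7 and of 9. Cxcl10, an interferon-induced ligand of CXCR3, was at 12.4 and 4.57 CPM in the week 2 UVB libraries and at 30.8 and 45.0 CPM at week 15 (log2 2.16 ± 0.57, adjusted p = 0.097). Ccl7, which attracts monocytes, was at 1.95 and 4.57, then 15.4 and 24.4 CPM (log2 2.59 ± 0.47, adjusted p = 0.0581). Neither gene's UVB groups overlapped, and control libraries of these weeks ranged from 1.08 to 4.74 CPM for Cxcl10 and from 0.378 to 0.916 CPM for Ccl7. The list medians were 0.98 and 1.44 in log2. Inflammatory cytokines and receptors had a median of -0.22 over 19 members and type 2 and chitinase-like genes 0.03 over 10, with 0 called in each.

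Cdkn2a encodes the cell cycle inhibitor p16 and the p53 activator ARF. Cdkn2a (chromosome 4, 89274473 to 89294619) was at 0.354 and 0.979 CPM in the week 2 UVB libraries and at 12.4 and 28.5 CPM at week 15. Control libraries ranged from 0.378 to 3.36 CPM, and the week 15 UVB libraries stood above all of them. Cdkn2a rose by 4.87 ± 0.77 in log2 (edgeR adjusted p = 0.0496), against 0.995 ± 0.94 in controls. At week 25 it was at 37.9 and 39.2 CPM under UVB and at 3.42 and 5.32 CPM in control, a log2 difference of 3.13 ± 0.61 (edgeR adjusted p = 0.00782).

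Igfbp6, a binding protein of insulin-like growth factor 2, was at 2.48 and 3.26 CPM, then 11.8 and 20.4 CPM under UVB. It rose by 2.47 ± 0.43 (edgeR adjusted p = 0.0496), while its control libraries went from 3.41 and 1.25 to 0.945 and 0.764 CPM. Syk, a tyrosine kinase of immune receptor signalling, rose from 7.97 and 9.47 to 29.7 and 42.9 CPM (log2 2.05 ± 0.33, edgeR adjusted p = 0.0496). For both genes the week 15 UVB libraries were the highest of the 8.

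P4ha3, a subunit of an enzyme that hydroxylates proline in collagen, had 0 counts in both week 2 UVB libraries and 68 counts at week 15 (3.97 and 6.02 CPM). Its level was at least 19.6-fold higher at week 15 (edgeR adjusted p = 0.036), taking 3 counts over the week 2 group as the floor. Col7a1, the collagen of the fibrils that anchor the epidermis to the dermis, rose from 54.9 and 81.0 to 252 and 238 CPM (log2 1.85 ± 0.32, edgeR adjusted p = 0.0496). Its control libraries went from 117 and 82.2 to 151 and 312 CPM, so that they overlapped with the week 15 UVB libraries.

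The 36 called genes differed in where they stood against control at each week. These are descriptions, since UVB libraries enter both sides, and near control means a log2 UVB over control under 1 in size. In 8 genes a difference was added: Cdkn2a, Igfbp6, Oas1b, Oas2, Oas3, Phf11d, Samd9l and Syk were near control at week 2 and above it at week 15. At week 25, in libraries outside this comparison, all 8 were higher under UVB at an adjusted p under 0.05 (10.6% of all tested genes were), by 1.57 (Syk) to 4.22 (Igfbp6) in log2.

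In 10 genes a difference was lost: Abcc5, Adam1a, Cacna1e, Fam193b, Gigyf1, H2-M2, Hoxa5, Sema5a, Slc2a4rg-ps and Tcirg1 were below control at week 2 and near it at week 15. Of these, Cacna1e did not pass the test against control at week 2 (log2 -1.14 ± 0.58, edgeR adjusted p = 0.187). Its change in control epidermis was 1.96 ± 0.46 (edgeR adjusted p = 0.0799). Sema5a, a semaphorin guidance factor, had 6.20 and 6.37 CPM at week 2 and 25.2 and 24.1 CPM at week 15 under UVB, against 15.6 and 16.6, then 26.5 and 18.3 CPM in control. It rose by 1.97 ± 0.26 (edgeR adjusted p = 0.0264). Abcc5, a transporter of cyclic nucleotides, went from 46.9 and 61.5 to 163 and 110 CPM (log2 1.33 ± 0.19, edgeR adjusted p = 0.0348), while controls stayed between 132 and 152 CPM. Only the week 2 UVB libraries were low in these 2 genes. Adam1a, of the ADAM metalloprotease family, went from 3.19 and 3.26 to 15.4 and 12.5 CPM (log2 2.11 ± 0.34, edgeR adjusted p = 0.0496), with controls between 10.8 and 21.5 CPM. At week 25, Abcc5 was lower than control at an adjusted p under 0.05 (10.9% of all tested genes were), Cacna1e and H2-M2 were higher, and the other 7 did not pass that test.

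Of the other 18 genes, 15 were near control at both weeks, and Apol9b and Zfp365 were away from it at both. Apol9b was below control at week 2 (log2 -2.29, edgeR adjusted p = 0.0522) and above it at week 15 (2.04, edgeR adjusted p = 0.0678), and passed neither test. Zfp365 was above control at both weeks (log2 2.20 and 1.67). P4ha3 was above control at week 15, and at week 2 it had 0 counts under UVB and 1 in control, too few to place it. The change in control epidermis had the same sign in 32 of the 36, and in 16 of these with an unadjusted p under 0.05 (28.6% of all tested genes in either direction). Kmt2a and Kmt2d, which encode histone H3 lysine 4 methyltransferases, are examples. Kmt2a rose by 1.30 ± 0.20 under UVB (edgeR adjusted p = 0.0496) and its control change was 1.31 ± 0.20 (adjusted p = 0.0537). Kmt2d went from 108 and 122 to 263 and 236 CPM under UVB, a rise of 1.12 ± 0.14 (edgeR adjusted p = 0.0252), and from 183 and 173 to 321 and 349 CPM in control (log2 0.91 ± 0.14, adjusted p = 0.0537). In 29 of the 33 genes that rose, P4ha3 among them, UVB lay below control at week 2 (above in 48.3% of all tested genes). The same week 2 UVB libraries entered the calls, and low values there favor a rise, so this count is a description only. Some of these differences were near 0, such as Tap2 at -0.04 and Fcgbp at -0.07 in log2. Longer transcripts held more calls, with 14 of 36 among the 2696 longest of the genes tested (4750 bases of exon or more), whose median log2 was 0.14 under UVB and 0.26 in control.

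Among the falls, Ankrd37, a known target of hypoxia-inducible factor, went from 66.6 and 60.6 to 20.9 and 19.2 CPM (log2 -1.66 ± 0.20, edgeR adjusted p = 0.0252). Controls went from 38.4 and 52.7 to 29.3 and 25.1 CPM, with a log2 of -0.73 ± 0.20 (adjusted p = 0.0882). The week 15 UVB libraries were the lowest of the 8 and the week 2 UVB libraries the highest. The list of hypoxia and glycolysis genes had 0 of 25 called, with a median of -0.22 under UVB and 0.42 in control.

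Zfp365, a zinc finger protein gene, fell from 68.2 and 73.1 to 35.7 and 27.6 CPM (log2 -1.16 ± 0.20, edgeR adjusted p = 0.0496). It was still above its controls, which were at 16.3 and 14.1, then 9.45 and 10.4 CPM. Lynx1, a modulator of nicotinic acetylcholine receptors, fell from 93.0 and 81.1 to 43.2 and 43.9 CPM (log2 -0.997 ± 0.17, edgeR adjusted p = 0.0496). In control epidermis Lynx1 went from 148 and 140 to 85.3 and 62.2 CPM, a change of -0.96 ± 0.17 (adjusted p = 0.0537).

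A further 9 genes had the next smallest p-values downward and did not pass the test: Vamp7, Stac2, Kif2a, Rabgap1l, Actr10, Eda2r, Mylpf, Mpp7 and Glt28d2. Eda2r, a receptor of ectodysplasin A2 and a p53 target, was at 77.1 and 87.0 CPM in the week 2 UVB libraries and at 30.9 and 32.5 CPM at week 15. Its control libraries were at 2.69 and 5.40, then 6.43 and 9.47 CPM, so it stood above control at both weeks (log2 change -1.37 ± 0.29 under UVB, adjusted p = 0.0701). The p53 targets as a list had 0 of 31 called and a median of -0.06 under UVB, which turned to 0.01 with upper quartile scaling. Nucleotide excision repair genes, which cut out UV photoproducts, had 0 of 24 called and a median of 0.04.

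The change under UVB and the change in control epidermis share no library, and across the 13478 genes they had the same sign in 68.7% (Pearson r = 0.351, Spearman rho = 0.46, across genes, which are not independent replicates). The genes with the smallest p for a difference between the 2 changes were not called. Chil4, a chitinase-like gene, was at 8.68 and 29.1, then 134 and 174 CPM under UVB, and at 93.3 and 4.57, then 0.378 and 0.305 CPM in control. Its 2 control libraries of week 2 stood far apart. In the other direction stood Zbed6, which was at 62.2 and 66.4, then 63.4 and 59.0 CPM under UVB and rose in control from 20.3 and 11.2 to 78.5 and 71.6 CPM (log2 2.19 ± 0.25, edgeR adjusted p = 0.0356). Zbed6 lies within another gene, Zc3h11a, and reads of the 2 may be mixed. Without week 2 control library 0 the difference had 800 calls, and the control change 3640, against 5 without library 1, 751 without week 15 control library 0 and 0 without library 1.

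Cell division genes had positive medians in both arms. Of 37 proliferation genes 0 were called under UVB, with a median log2 of 0.56, but both week 15 UVB libraries were above both week 2 UVB libraries in 30 of 37 (33.8% of all tested genes), and above all 6 other libraries in 30 of 37 (9.83%). In control epidermis the median was 1.54, and 1 of 37 rose (0.0223% of all tested genes). Mki67, a marker of cycling cells, was at 80.2 and 109, then 170 and 206 CPM under UVB (log2 0.99 ± 0.26, adjusted p = 0.097). In control it rose from 21.7 and 22.8 to 70.1 and 134 CPM (log2 2.21 ± 0.29, edgeR adjusted p = 0.0486). The list already stood above control at week 2, with a median UVB over control of 2.21 in log2, against 1.32 at week 15. The difference between the 2 changes had an unadjusted p under 0.05 downward in 6 of 37 (4.24% of all tested genes) and upward in 0.

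Basal keratinocyte genes had a median of 0.77 under UVB and 1.05 in control, with 0 of 14 called. Krt15, a keratin of basal and follicle stem cells, was at 44.6 and 68.5, then 101 and 96.5 CPM (adjusted p = 0.0995). The layers above went the other way with small sizes: both week 15 UVB libraries were below both week 2 UVB libraries (32.1% of all tested genes) in 26 of 30 differentiation genes (median -0.28), in 21 of 24 barrier lipid genes (-0.42) and in 15 of 27 cornified envelope genes (-0.18), none of them called. Tgm5, a transglutaminase that crosslinks envelope proteins, was at 263 and 233, then 144 and 166 CPM (adjusted p = 0.11). The control medians of these 3 lists were -0.46, -0.50 and -0.86. Most members were abundant, with 29 of 30, 24 of 24 and 25 of 27 above 0.1 counts per base of exon. Over all genes the UVB median was -0.10 between 0.1 and 0.4, -0.24 between 0.4 and 1, and -0.23 above 1 count per base. Whether these lists differ from other abundant genes was not tested. With the 4 UVB libraries alone, 15 of 24 barrier lipid genes, 7 of 30 differentiation genes and 1 of 26 cornified envelope genes fell (8.06% of all genes in that fit).

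**Figure D3:**
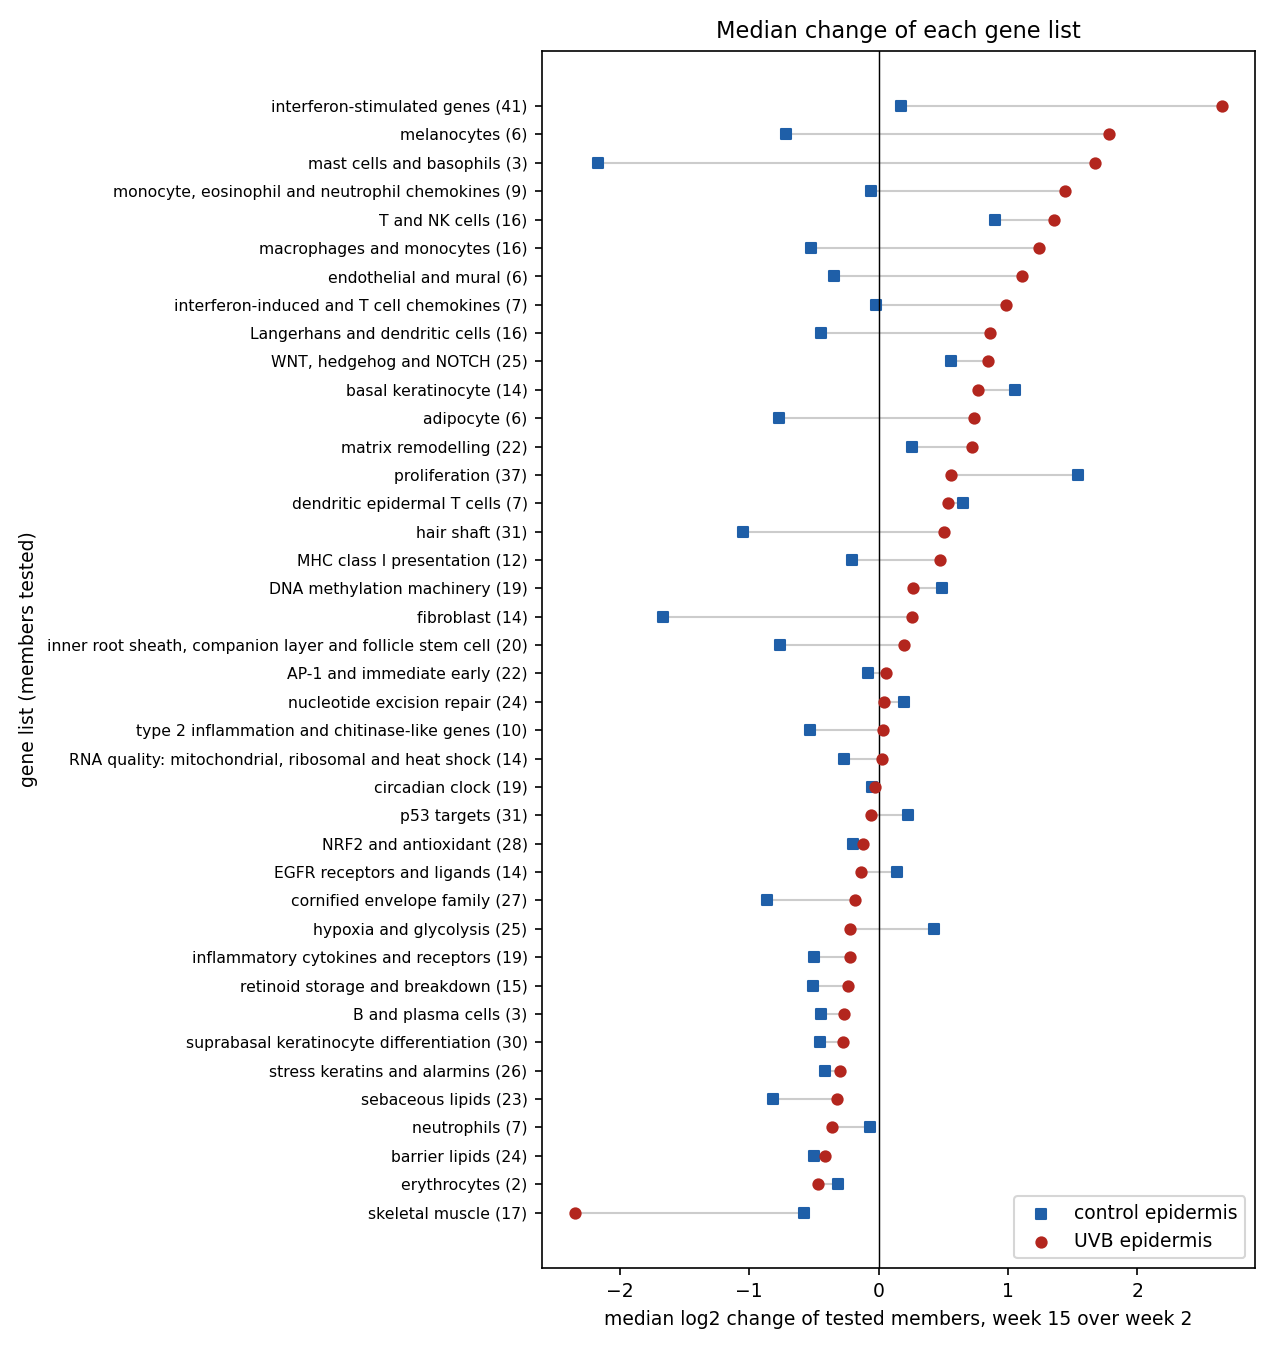
Median log2 change from week 2 to week 15 of the tested members of 40 gene lists in UVB epidermis (circles) and control epidermis (squares), ordered by the UVB value, with the number tested in brackets. The interferon-stimulated list has the highest UVB median, 2.66, against 0.17 in control, and skeletal muscle the lowest, -2.35.

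Other lists had 0 members called. Their medians under UVB and in control were 0.85 and 0.56 for WNT, hedgehog and NOTCH (25 genes), 0.72 and 0.26 for matrix remodelling (22), 0.26 and 0.49 for DNA methylation machinery (19), and 0.05 and -0.08 for AP-1 and immediate early genes (22). They were -0.12 and -0.20 for NRF2 and antioxidant genes (28), -0.14 and 0.14 for EGFR receptors and ligands (14), -0.03 and -0.05 for the circadian clock (19), and -0.24 and -0.51 for retinoid storage and breakdown (15). Stress keratins and alarmins had -0.30 and -0.41 (26), sebaceous lipids -0.32 and -0.81 (23), and RNA quality genes (mitochondrial, ribosomal and heat shock) 0.03 and -0.26 (14). The clock median turned to 0.04 with upper quartile scaling. Mmp14, a membrane-bound matrix protease, had the smallest p of the matrix list, at 9.57 and 11.4, then 28.7 and 30.4 CPM (adjusted p = 0.0696), and its controls ran from 19.1 to 34.4 CPM.

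Hair follicle genes were low under UVB at both weeks. The hair shaft list had a median of 0.50 under UVB and -1.05 in control, and the inner root sheath, companion layer and follicle stem cell list 0.19 and -0.76, with 0 called. Hair shaft members summed to 492 and 265 CPM in the week 2 UVB libraries and to 317 and 476 CPM at week 15, so the groups overlapped. In control the sums were 3833 and 3097, then 2259 and 1300 CPM. The UVB median was -0.30 without week 2 UVB library 1 and -0.22 without week 15 UVB library 1.

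Among the immune marker lists, that of Langerhans and dendritic cells had a positive median under UVB and a negative one in control. So did those of macrophages and monocytes and of mast cells and basophils, but the summed CPM of each overlapped between the UVB weeks. The part of these lists in the interferon gene changes was not tested. Langerhans and dendritic cell markers had 0 of 16 called, with a median of 0.86 under UVB and -0.45 in control. Both week 15 UVB libraries lay above both week 2 ones in 13 of 16 (33.8% of all tested genes). The markers summed to 771 and 671 CPM at week 2, 1027 and 1080 CPM at week 15, and in control to 839 and 1446, then 680 and 858 CPM. Ciita, the master regulator of MHC class II genes, was at 6.02 and 6.04, then 16.04 and 16.4 CPM (log2 1.43 ± 0.28, adjusted p = 0.0696). For the difference between the UVB and control changes, 10 of 16 had an unadjusted p under 0.05 upward (4.59% of all tested genes). With the 4 UVB libraries alone, where 10.2% of all genes rose and 8.06% fell, 32 of 36 interferon-stimulated genes rose. In that fit 10 of 15 Langerhans and dendritic cell markers and 6 of 13 T and NK cell markers rose. Of 9 macrophage and monocyte markers 1 rose and 1 fell, and 8 of 12 skeletal muscle markers fell.

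T and NK cell markers had 0 of 16 called, a median of 1.35 under UVB and 0.90 in control, and sums of 57.8 and 40.6, then 88.6 and 84.3 CPM under UVB. In control they summed to 60.3 and 115, then 102 and 163 CPM. Ifng, the gene of interferon gamma, was at 0.177 and 0.00, then 2.06 and 1.76 CPM (adjusted p = 0.0991), and in control it was at 0.00 in both week 2 libraries and at 0.189 and 0.611 CPM at week 15, from 5 counts in all. Both arms were thus higher at week 15, and the control values rest on few counts. Macrophage and monocyte markers had a median of 1.24 under UVB and -0.52 in control (16 genes, 0 called). Under UVB they summed to 291 and 298, then 293 and 344 CPM, with overlap between the weeks. Dendritic epidermal T cell markers had a median of 0.54 (7 genes) and neutrophil markers -0.36 (7).

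**Figure D4:**
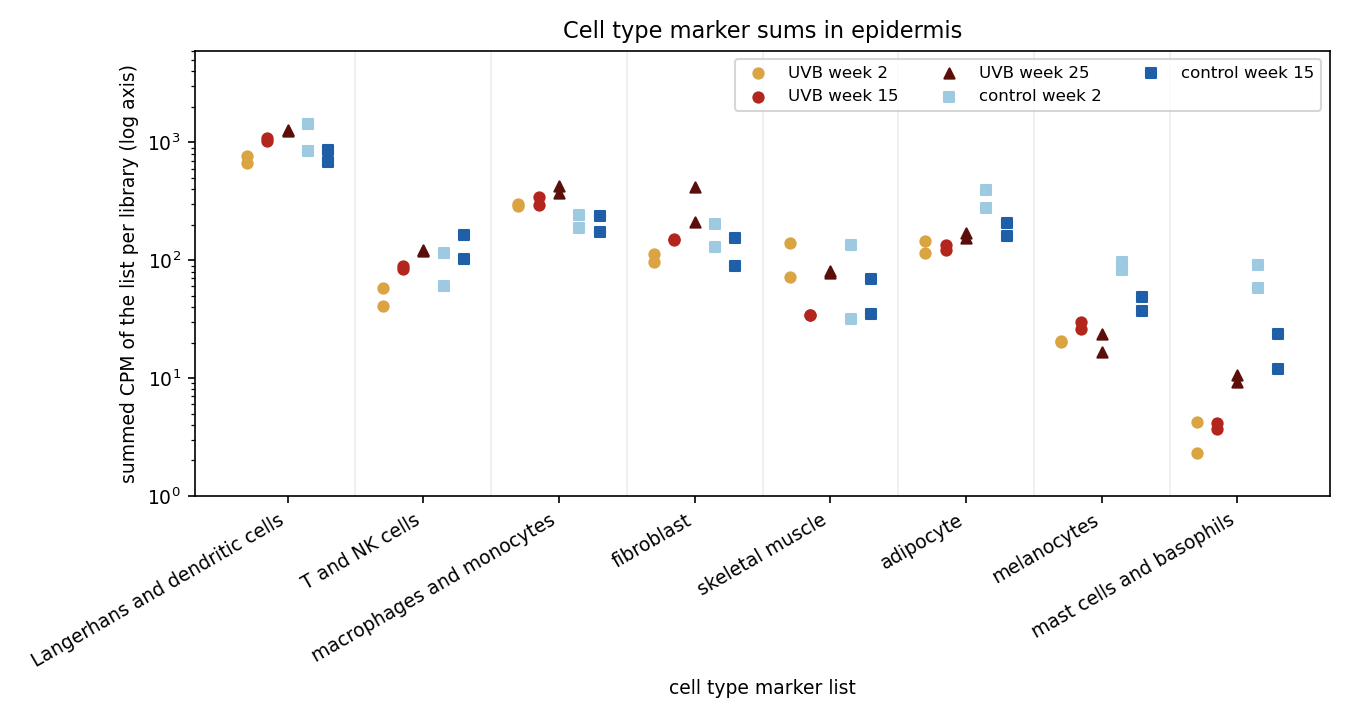
Summed CPM (log axis) of 8 cell type marker lists in each library (points), by arm and week. Langerhans and dendritic cell markers sum to 1027 and 1080 CPM at week 15 under UVB against 771 and 671 at week 2, and skeletal muscle markers to 34.4 and 34.4 against 72.6 and 139.

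Markers of tissue below the epidermis were present at low levels. Skeletal muscle markers had 0 of 17 called, a median of -2.35 under UVB and -0.57 in control, and sums of 72.6 and 139, then 34.4 and 34.4 CPM under UVB. Acta1, skeletal muscle actin, was at 10.1 and 25.8 CPM at week 2 and at 1.18 and 1.47 CPM at week 15, while its control libraries ranged from 0.538 to 22 CPM. Fibroblast markers had a median of 0.26 (14 genes) and sums of 112 and 95.8, then 148 and 152 CPM, adipocyte markers 0.74 (6 genes), and endothelial and mural markers 1.11 (6 genes). Melanocyte markers had 1.78 over 6 genes with sums of 20.6 and 20.2, then 29.7 and 26.0 CPM, below the 37.0 to 96.9 CPM of controls. Mast cell and basophil markers (3 genes, 0 called) had 1.67 under UVB and -2.17 in control. All 12 listed markers summed to 2.30 and 4.24, then 4.12 and 3.67 CPM under UVB, with overlap between the weeks. In control they summed to 58.0 and 90.5, then 23.8 and 11.9 CPM. B and plasma cell markers (3) had -0.27 and erythrocyte markers (2) -0.47 under UVB, with 0 called in each.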

How the data were processed

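RNA of 16 skin libraries was sequenced, and the authors deposited whole-number read counts for 24421 genes, positioned on mm10. Per the submitters' processing notes, HISAT2, Picard, featureCounts and DESeq2 were used, and per the file headers duplicates were removed before counting. The sources used here do not give the strand setting, the annotation release or the treatment of multi-mapping reads, so genes with near-identical copies, overlapping genes and antisense genes are uncertain. Library totals were 2905165 to 7959503 counts. Counting intervals (95%) were computed only for named genes with reads but at most 3 counts in a compared group. They were wide, such as 3.70-fold to 922-fold for Ifng, week 15 over week 2 under UVB. Counts as deposited were fitted with edgeR 4.0.16 in R 4.3.3: 12 epidermis libraries, 1 mean per group, filterByExpr (minimum count 10, minimum total 15), TMM, quasi-likelihood F test, 6 residual degrees of freedom, and Benjamini-Hochberg adjustment over 13478 genes, with a biological coefficient of variation of 19.1%. Log2 values have a prior count of 0.125, and CPM use TMM sizes. Fits were tested on simulated data. Alternatives used DESeq2 1.42.0, other scalings, filters, libraries and a replicate block.

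Named genes were the 12 largest rises and falls among genes called at an adjusted p under 0.05 whose 4 libraries averaged 5 CPM or more, with groups that do not overlap, leaving out predicted gene models. Where fewer were called, those with the smallest p follow, with 6 per direction for control and 8 for the difference. Up to 4 members of each of 40 gene lists and the most abundant marker of each cell type were also eligible. Values of some single list members are not reported here. Comparison, lists and rule were chosen with earlier results of these data known.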

Additional observations from a re-analysis of the deposited data

How the results depend on the processing

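Counts of called genes moved with most settings, and the cause was not tested beyond what each setting leaves out. Under UVB, 36 genes were called. The count was 5 with the 8 epidermis libraries of weeks 2 and 15, 2 with all 16 libraries, 634 with DESeq2 (495 up, 139 down), 11 with DESeq2's size factors in edgeR, 459 with no filter on low counts, 8 with a mean of at least 5 CPM, 2309 with the 4 UVB libraries only, and 0 to 0 with each UVB library left out. It was 36 with upper quartile scaling and 42 without genes above 0.4 counts per base. For control epidermis (3 genes) these settings gave 0 with 8 libraries, 0 with 16, 1297 with DESeq2, 1 with its size factors, 15 with upper quartile scaling, 1075 with no filter, 0 at 5 CPM, 28 without genes above 0.4 counts per base, and 0 to 3640 leaving out each library. The difference between arms (0 genes) had 50 calls with DESeq2, 26 with no filter, 0 to 800 leaving out each library, and 0 otherwise. The 8 genes with an added difference became 4, 1, 64, 3, 72 and 3 with 8 libraries, 16 libraries, DESeq2, its size factors, no filter and 5 CPM, and 0 to 0 leaving out each UVB library.

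With the replicate number as a block, calls were 7 under UVB, 0 in control and 0 for the difference, with 3 added. The numbers do not pair samples by any label: the correlation of replicate differences was -0.168 between the UVB weeks and -0.063 between the control weeks. Settings chosen after seeing the data were the crossed pairing (5 calls, 2 added) and leaving out week 2 control library 1 (277 calls, 28 added).

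Of values of single genes under other settings, 2797 kept their direction and side of the threshold, 347 lost and 295 gained a call and 6 reversed, and the cause was not tested. Alas2 turned from 0.085 to -0.021 without genes above 0.4 counts per base. Leaving out each UVB library, the log2 value ran from -0.621 to 1.631 for Alas2, from -0.321 to 0.219 for Cd5, from -3.168 to 2.169 for Slc4a1 and from -0.067 to 1.345 for Flt1. Depth limits genes near 3 counts per group, and 2 libraries per group limit every test.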
